A study of Arabidopsis thaliana with 27 samples.

Results

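Ethylene response factors (ERF) are plant transcription factors with a single AP2/ERF DNA-binding domain, and the 10 genes described here have known parts in defense responses. They were taken by locus: ERF1 (AT3G23240), ORA59 (AT1G06160), ERF1A (AT4G17500), ERF2 (AT5G47220), ERF4 (AT3G15210), ERF5 (AT5G47230), ERF6 (AT4G17490), ERF11 (AT1G28370), ERF104 (AT5G61600) and ERF105 (AT5G51190), 10 of the 32833 genes in the count table. The libraries came from 3-day-old Arabidopsis thaliana seedlings of the ecotype labelled Col-O (the Columbia accession), grown in liquid medium and given an N-acylethanolamine (NAE) or its solvent DMSO. NAEs are fatty acid ethanolamides, and NAE 18:3 differs from NAE 18:2 by an additional double bond in its acyl chain. The groups were NAE 18:3 roots, NAE 18:2 roots and DMSO roots, then NAE 18:3, NAE 18:2 and DMSO cotyledons, and NAE 18:3, NAE 18:2 and DMSO whole seedlings, with 3 libraries in each of the 9 groups. NAE 18:2 was given at 40 µM, NAE 18:3 at 70 µM according to the sample labels and 80 µM according to the series text, and DMSO at 0.2%. The treatment lasted 1 h by the labels, and a range of 1 to 3 h is given in the text of the study. Each library held RNA pooled from many plants of a dish, seedlings were treated whole, and cotyledons and roots were cut from them afterwards.

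ERF proteins sit at the end of the ethylene pathway and are also reached by jasmonate and by mitogen-activated protein kinases. Activator ERF proteins bind the GCC box (GCCGCC) in promoters of antimicrobial protein genes such as the plant defensin PDF1.2, and repressor ERF proteins, which carry an EAR motif, bind the same box and silence it. Many ERF genes are transcribed within minutes of touch, wounding, chitin or bacterial flagellin.

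The count table held 27 libraries of 17781269 to 38635934 counts, with a median of 26436942. Levels are given as CPM, the count of a gene per 1e6 counts of its library, with TMM scaling over the 27 libraries. A gene was called when its p from the quasi-likelihood test of edgeR, adjusted by the Benjamini-Hochberg method for all genes tested, was below 0.01 and its log2 fold change was beyond 1 in size. The 3 libraries of a group are described as biological replicates, with no statement of whether they came from separate cultures, and p-values measure the spread between these libraries. Organ labels were checked with 7 root and 8 cotyledon (photosynthesis) marker genes. The summed cotyledon markers lay between 35.8 and 71.6 CPM in 8 root libraries and at 752 CPM in NAE 18:3 roots replicate 3. Summed root markers lay between 934 and 1288 CPM in NAE 18:3 roots, against 2482 to 4727 CPM in DMSO roots. That sum did not tell the organs apart, as it lay between 3095 and 3513 CPM in DMSO cotyledons. PYK10, a root marker, did not differ between DMSO roots and DMSO cotyledons (log2 fold change -0.08, adjusted p = 0.783). Among whole seedlings, 4 libraries stood apart: NAE 18:2 replicates 1 and 3 and NAE 18:3 replicates 2 and 3. Their mean root-marker minus cotyledon-marker level, on the log2(CPM + 1) scale, was between -9.75 and -9.54, against -7.07 to -6.40 in DMSO seedlings and -10.5 to -10.1 in dissected cotyledons. NAE 18:2 seedlings replicates 1 and 3 were also nearly alike, with a chi-square per degree of freedom of 1.87 over gene counts, where the next closest pair of any group had 9.89. Results in seedlings are therefore given with and without these 4 libraries.

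In RefSeq's TAIR10.1 annotation, each of the 10 genes has a single exon. ERF6 (chr4:9752824-9754161, minus strand) and ERF1A (chr4:9759203-9760391, plus strand) are transcribed away from each other, 5041 bases apart, with 0 annotated genes between. ERF2 (chr5:19171643-19172956, minus strand) and ERF5 (chr5:19179881-19181182, plus strand) are also transcribed away from each other, 6924 bases apart, with 2 annotated genes between. The closest proteins are ERF1A and ERF2, identical at 67.5% of the residues of the shorter, then ERF5 and ERF6 at 63.5%, ERF104 and ERF105 at 51.1% and ERF1 and ORA59 at 49.1%, and an EAR motif was found in ERF4 and ERF11, the repressors of the set. The promoters below are read 5′ to 3′ on the strand of each gene and end at the base before its annotated start. They are shown because ERF1A and ERF2 rose together in roots and ERF6 had the largest log2 fold change there. ORA59 and ERF11, the members with a GCC box, are shown because they did not pass the threshold there. These promoters were thus picked by outcome, and a link between motif and response was not tested. ERF4, which has a G-box, and ERF104 did not pass the threshold in roots either, and neither has a GCC box. Capitals mark the GCC box GCCGCC, the W-box core TTGAC (the site of WRKY factors) and the G-box CACGTG.
ORA59, chr1:1882607-1882906, plus strand: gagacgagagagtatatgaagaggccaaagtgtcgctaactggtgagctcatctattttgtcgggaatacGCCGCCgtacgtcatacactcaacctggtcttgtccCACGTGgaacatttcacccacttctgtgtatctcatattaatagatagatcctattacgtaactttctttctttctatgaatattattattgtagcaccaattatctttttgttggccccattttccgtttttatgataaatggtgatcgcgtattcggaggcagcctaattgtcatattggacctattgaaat
ERF1A, chr4:9759053-9759202, plus strand: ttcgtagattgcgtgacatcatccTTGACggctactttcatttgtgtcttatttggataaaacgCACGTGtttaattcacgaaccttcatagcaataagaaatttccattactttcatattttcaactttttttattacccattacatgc
ERF2, chr5:19172957-19173106, minus strand: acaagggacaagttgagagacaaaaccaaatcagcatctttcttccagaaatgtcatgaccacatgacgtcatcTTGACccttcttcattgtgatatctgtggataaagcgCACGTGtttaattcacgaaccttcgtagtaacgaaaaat
ERF11, chr1:9956981-9957130, minus strand: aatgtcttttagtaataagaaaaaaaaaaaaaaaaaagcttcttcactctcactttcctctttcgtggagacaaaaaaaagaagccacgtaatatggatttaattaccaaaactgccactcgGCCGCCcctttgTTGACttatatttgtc
ERF6, chr4:9754162-9754311, minus strand: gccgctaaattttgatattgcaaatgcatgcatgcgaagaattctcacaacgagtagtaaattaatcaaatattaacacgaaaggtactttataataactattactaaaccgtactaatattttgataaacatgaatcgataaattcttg
Both strands of the 300 bases before each gene were searched. CACGTG stood in 4 of 10 members (ORA59, ERF1A, ERF2 and ERF4), against 7.09% of 27443 promoters of that length. GCCGCC stood in 2 of 10 members, against 2.26%, its last base 225 bases before the start of ORA59 and 23 before that of ERF11. TTGAC stood in 6 of 10, against 50.4%, and CGCGTT, the core bound by calmodulin-binding CAMTA factors, in 0 of 10, against 3.08%. ERF1A and ERF2 shared an unbroken run of 26 bases that takes in the G-box, and only these promoters of the 27443 held it:
shared run: cgCACGTGtttaattcacgaaccttc
The next longest run shared by a pair of members had 12 bases (ERF2 and ERF11). The W-box core and the G-box lay 35 bases apart in ERF1A and 32 in ERF2. These are matches of letters and not measured binding sites.

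ERF105, known for responses to chitin and cold, had a count of 0 in each of the 27 libraries and could not be tested. Its 965 exon bases (chr5:20800473-20801437, minus strand) lie wholly within exons of AT5G51180 on the other strand, a gene with 380 to 1085 counts per library. Of 345 genes whose exons were wholly covered in this way, 331 (95.9%) had no count in any library, against 334 of 6328 (5.28%) of those covered in part. This count of 0 is therefore not read as a level of ERF105. The other 9 members passed the filter on low counts in every comparison.

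Without an NAE, the 9 measurable genes spanned a wide range of levels, compared here per kilobase of exon in DMSO libraries. In DMSO roots the order of means ran from ERF4 at 46.0 ± 13.5 CPM per kb (SD, n = 3 here and below), through ERF1A at 39.9 ± 8.37, ERF6 at 26.1 ± 4.08, ERF5 at 25.2 ± 2.18 and ERF104 at 19.2 ± 8.16, to ERF2 at 5.36 ± 1.03, ERF11 at 5.22 ± 2.86, ERF1 at 1.14 ± 0.384 and ORA59 at 0.718 ± 0.535. Neighbours in that order differed by less than the larger of their SDs, except ERF1A and ERF6, ERF104 and ERF2, and ERF11 and ERF1. In DMSO cotyledons ERF4 was again highest at 71.2 ± 4.59 CPM per kb, ERF1A stood at 34.3 ± 3.16, and ERF6, ERF5, ERF104, ERF2 and ERF11 lay between 19.1 and 25.2. The jasmonate and ethylene integrators were lowest there as well, ORA59 at 1.59 ± 0.646 and ERF1 at 0.117 ± 0.0676 CPM per kb, the last on 1 to 4 counts per library. In DMSO seedlings ERF4 had 29.9 ± 3.10, ERF1A 11.3 ± 1.41, and the rest no more than 5.71 ± 1.95 CPM per kb.

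**Figure D1:**
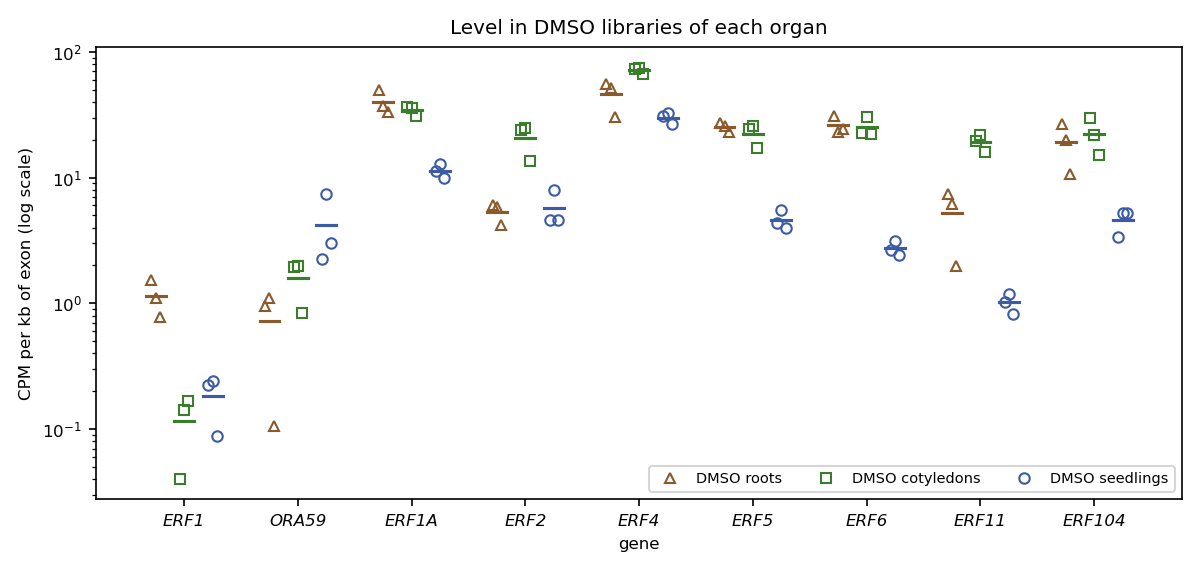
Level of the 9 measured genes in DMSO libraries, in CPM per kb of exon on a log axis. For each gene, triangles are DMSO roots, squares DMSO cotyledons and circles DMSO seedlings (3 libraries each), and bars are means. ERF6 lies near 26.1 in roots and 25.2 in cotyledons and at 2.75 in seedlings, and ERF1 is below the other genes in cotyledons and seedlings.

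Between the dissected organs, DMSO roots had more ERF1 and less ERF2 and ERF11 than DMSO cotyledons. That is 1 of 9 higher and 2 of 9 lower, where 20% of the 21643 genes tested were called higher and 22.4% lower, so the members are near the background here. ERF1 had 1.52, 1.10 and 0.765 CPM in DMSO roots, against 0.0399, 0.140 and 0.167 in DMSO cotyledons (log2 fold change 3.27, SE 0.95, adjusted p = 0.00456). ERF2, an activator that binds the GCC box, had 8.01, 7.63 and 5.51 CPM in DMSO roots, against 31.3, 32.4 and 17.8 in DMSO cotyledons (-1.94, SE 0.47, adjusted p = 0.00107). The repressor ERF11 had 8.99, 7.51 and 2.41 CPM in DMSO roots, against 23.7, 26.2 and 19.3 in DMSO cotyledons (-1.86, SE 0.55, adjusted p = 0.00472). The groups did not overlap for any of these genes. ERF2 was called in each of 6 fits with 1 library left out. ERF1 lost its call without DMSO cotyledons replicate 1, 2 or 3 or without DMSO roots replicate 1, with adjusted p up to 0.0256, and ERF11 lost it without DMSO cotyledons replicate 1 or 2 or DMSO roots replicate 2 or 3, with adjusted p up to 0.0291. ERF6 was at 34.9 ± 5.46 CPM in DMSO roots and 33.7 ± 6.18 CPM in DMSO cotyledons (0.05, SE 0.31, adjusted p = 0.892).

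In roots, both NAEs raised ERF1A, ERF2 and ERF6. ERF5 and ERF1 were called with NAE 18:3 but not with NAE 18:2, and ORA59, ERF4, ERF11 and ERF104 were called under neither. NAE 18:3 raised 5 of 9 members and lowered 0, where 5.94% of the 20138 genes tested were called higher and 16.8% lower. NAE 18:2 raised 3 of 9 and lowered 0, against 5.68% higher and 3.03% lower. The members' median log2 fold change was 1.95 with NAE 18:3 and 0.72 with NAE 18:2, beside all-gene medians of 0.00 and -0.02. Both NAEs are set against the same 3 DMSO libraries, so their values are not independent of each other.

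ERF6, a chitin-responsive factor that is phosphorylated by MPK3 and MPK6, had the largest log2 fold change of the members with each NAE. The next values lay within an SE of it: 3.35 for ERF2 with NAE 18:3 and 2.03 for ERF1A with NAE 18:2. ERF6 had 462, 455 and 397 CPM in NAE 18:3 roots and 232, 93.6 and 169.9 CPM in NAE 18:2 roots. DMSO roots had 41.1, 30.8 and 32.7 CPM. Every NAE library lay above every DMSO library, and the NAE 18:3 libraries lay above those of NAE 18:2. The log2 fold change was 3.48 with NAE 18:3 (SE 0.29, adjusted p = 4.18e-05) and 2.20 with NAE 18:2 (SE 0.28, adjusted p = 0.000932), or 12.6-fold and 4.74-fold in mean CPM. Its close relative ERF5, also a chitin-response factor, had 140.1, 142 and 148 CPM in NAE 18:3 roots and 66.8, 45.8 and 51.4 CPM in NAE 18:2 roots, against 35.3, 33.4 and 29.8 CPM in DMSO roots. ERF5 changed by 1.95 with NAE 18:3 (SE 0.13, adjusted p = 1.35e-05), while with NAE 18:2 its log2 fold change of 0.69 (SE 0.13, adjusted p = 0.00406) was under the fold threshold. Here too the groups did not overlap. ERF104, the flagellin-linked substrate of MPK6 and the third factor of that branch, had 17.8, 27.6 and 19.1 CPM in NAE 18:3 roots and 32.2, 22.8 and 23.7 CPM in NAE 18:2 roots, against 37.3, 27.9 and 14.7 CPM in DMSO roots, and its groups overlapped (log2 fold change -0.48, SE 0.32, adjusted p = 0.221 with NAE 18:3).

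The GCC-box activators ERF1A and ERF2, whose promoters share the run shown above, both rose. ERF1A had 274, 349.6 and 204 CPM in NAE 18:3 roots and 268, 122 and 211 CPM in NAE 18:2 roots, against 58.7, 44.2 and 39.6 CPM in DMSO roots. ERF1A changed by 2.37 with NAE 18:3 (SE 0.31, adjusted p = 0.000295) and by 2.03 with NAE 18:2 (SE 0.31, adjusted p = 0.00188), with no overlap between NAE and DMSO libraries. ERF2 had 83.8, 91.3 and 68.8 CPM in NAE 18:3 roots and 33.2, 15.4 and 32.7 CPM in NAE 18:2 roots, against 8.01, 7.63 and 5.51 CPM in DMSO roots. With NAE 18:3 that is 11.5-fold in mean CPM (log2 fold change 3.35, SE 0.29, adjusted p = 4.73e-05), and with NAE 18:2 3.84-fold (1.89, SE 0.28, adjusted p = 0.00179). NAE 18:2 roots replicate 2 was the lowest of its group for ERF6, ERF1A, ERF2 and ERF5. ERF1A with NAE 18:2 lost its call without DMSO roots replicate 2 (adjusted p = 0.0118) or replicate 3 (adjusted p = 0.0102). ERF6 and ERF2 kept theirs in every fit with 1 library left out, as did ERF1A, ERF2, ERF5 and ERF6 with NAE 18:3.

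The integrators of jasmonate and ethylene signals, ERF1 and ORA59, had fold changes of opposite sign in NAE 18:3 roots. ERF1 had 5.24, 9.99 and 2.32 CPM in NAE 18:3 roots and 3.67, 1.35 and 2.61 CPM in NAE 18:2 roots, against 1.52, 1.10 and 0.765 CPM in DMSO roots. It was called with NAE 18:3 (log2 fold change 2.20, SE 0.56, adjusted p = 0.00885) and not with NAE 18:2 (1.12, SE 0.56, adjusted p = 0.153). That call held in 1 of 6 fits with a library left out, the one without NAE 18:3 roots replicate 3 (adjusted p = 0.00260). It was lost without DMSO roots replicate 1, 2 or 3 (adjusted p = 0.0173, 0.0308 and 0.0318) and without NAE 18:3 roots replicate 1 or 2 (0.0155 and 0.0221). ORA59 had 0.0374, 0.533 and 0.0494 CPM in NAE 18:3 roots, on 1, 16 and 1 counts, and 0.658, 0.487 and 0.322 CPM in NAE 18:2 roots, against 1.03, 1.19 and 0.115 CPM in DMSO roots. The summed counts were 18 in NAE 18:3 roots and 78 in DMSO roots, a ratio of 0.281 per unit of depth (exact binomial 95% interval 0.158 to 0.474, counting error only), while the fit over libraries gave -1.97 (SE 0.95, adjusted p = 0.103). One DMSO library lay within the range of the NAE 18:3 libraries, so the groups overlapped.

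The EAR repressors were not raised past the threshold in roots. ERF4 had 83.3, 113 and 86.7 CPM in NAE 18:3 roots and 94.4, 78.7 and 93.7 CPM in NAE 18:2 roots, against 63.3, 59.2 and 34.8 CPM in DMSO roots. ERF4 did not pass the threshold, with 0.67 for NAE 18:3 (SE 0.22, adjusted p = 0.0252) and 0.72 for NAE 18:2 (SE 0.22, adjusted p = 0.0319), and its NAE libraries lay above its DMSO libraries. ERF11 had 1.42, 4.00 and 3.16 CPM in NAE 18:3 roots and 5.30, 5.70 and 4.37 CPM in NAE 18:2 roots, against 8.99, 7.51 and 2.41 CPM in DMSO roots. With NAE 18:3 its log2 fold change was -1.31 (SE 0.49, adjusted p = 0.0468), and it passed the threshold as lower only in the fit without DMSO roots replicate 3 (adjusted p = 0.00765).

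Organ markers moved in the same root libraries: 4 of the 7 root markers (PYK10, CASP1, COBL9 and RHD6) were called lower in NAE 18:3 roots than in DMSO roots, and their part in the ERF values was not tested. In bulk tissue, fewer cells of a type and less RNA per cell cannot be told apart. Without NAE 18:3 roots replicate 3, the library with cotyledon markers, the log2 fold changes were 3.56 for ERF6, 3.47 for ERF2, 2.56 for ERF1A and 1.94 for ERF5, close to those with it.

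**Figure D2:**
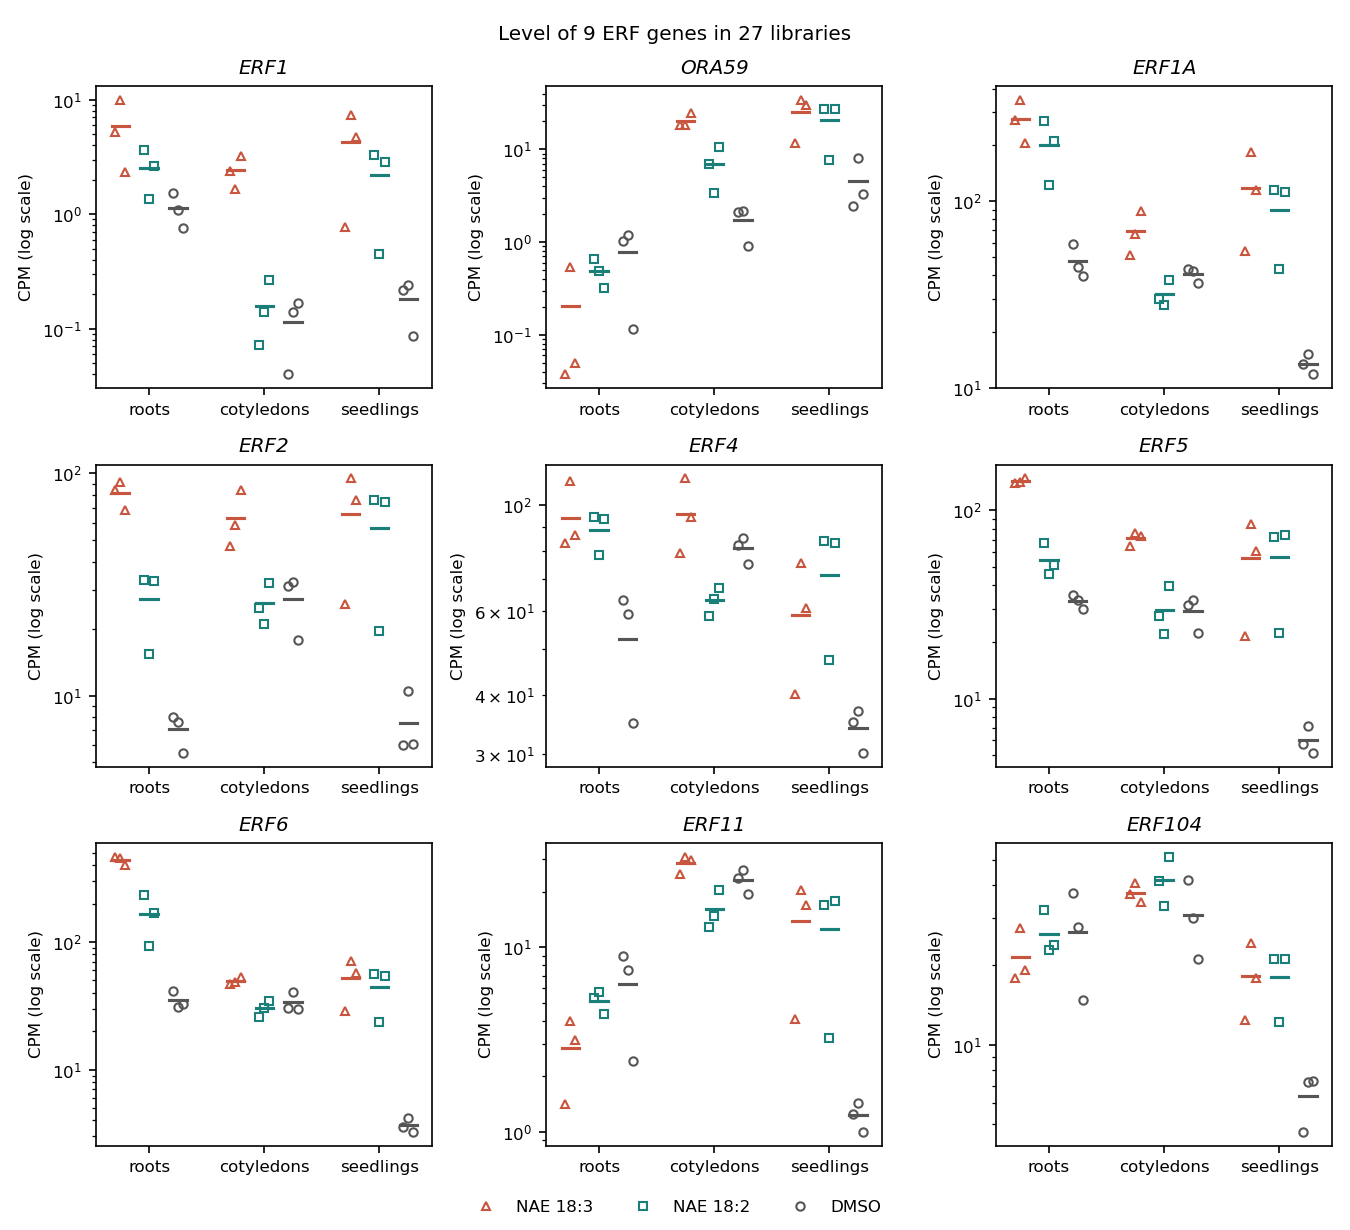
CPM on a log axis for each of the 9 measured genes, by organ. Triangles are NAE 18:3, squares NAE 18:2 and circles DMSO libraries, 3 of each per organ, and bars are means. ERF6 reaches 397 to 462 CPM in NAE 18:3 roots, against 30.8 to 41.1 CPM in DMSO roots, while its cotyledon libraries lie between 26.1 and 53.3 CPM.

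In cotyledons NAE 18:3 raised ERF1, ORA59 and ERF5, 3 of 9, and lowered 0, where 6.33% of the 19444 genes tested were called higher and 2.49% lower. With NAE 18:2, edgeR called 0 of 9 members, where 0.617% of genes were called higher and 0.108% lower. At an unadjusted p under 0.05 there were 3 members (ORA59, ERF4 and ERF11), and DESeq2 called 1 (ORA59). The members' median log2 fold change was 0.74 with NAE 18:3 and -0.04 with NAE 18:2, beside all-gene medians of -0.02 and -0.01.

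ERF1 was close to the limit of counting in control cotyledons and well above it with NAE 18:3. It had 2.37, 1.67 and 3.20 CPM in NAE 18:3 cotyledons and 0.0727, 0.139 and 0.266 CPM in NAE 18:2 cotyledons, against 0.0399, 0.140 and 0.167 CPM in DMSO cotyledons. The summed counts were 169 with NAE 18:3 and 8 with DMSO, a ratio of 21.1 per unit of depth (exact binomial 95% interval 10.5 to 49.6, counting error only). In the fit the log2 fold change was 4.33 with NAE 18:3 (SE 0.50, adjusted p = 0.000217) and 0.43 with NAE 18:2 (SE 0.69, adjusted p = 0.737). With 12 counts under NAE 18:2, a ratio of 1.34 to DMSO (0.504 to 3.78), a change of ERF1 by that NAE was not detectable at this depth. ORA59 had 18.2, 18.2 and 24.9 CPM in NAE 18:3 cotyledons and 6.91, 3.40 and 10.6 CPM in NAE 18:2 cotyledons, against 2.12, 2.15 and 0.917 CPM in DMSO cotyledons. All 3 groups were apart, in the order NAE 18:3, NAE 18:2, DMSO. The log2 fold change of ORA59 was 3.55 with NAE 18:3 (SE 0.44, adjusted p = 0.000365) and 2.02 with NAE 18:2 (SE 0.44, adjusted p = 0.0283), where the NAE 18:2 value was over the fold threshold and its p was not below 0.01. It passed both without NAE 18:2 cotyledons replicate 2 (2.36, adjusted p = 0.00571). ERF1 and ORA59 with NAE 18:3 kept their calls in 6 of 6 fits with a library left out.

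ERF5 had 64.9, 75.5 and 73.0 CPM in NAE 18:3 cotyledons and 27.5, 22.0 and 39.7 CPM in NAE 18:2 cotyledons, against 31.5, 33.5 and 22.4 CPM in DMSO cotyledons. Its log2 fold change was 1.27 with NAE 18:3 (SE 0.22, adjusted p = 0.00224), lost without NAE 18:3 cotyledons replicate 2 (1.23, adjusted p = 0.0108), and 0.04 with NAE 18:2. ERF2 just missed the threshold with NAE 18:3, at 47.0, 58.6 and 83.9 CPM against 31.3, 32.4 and 17.8 CPM in DMSO cotyledons (1.2, SE 0.28, adjusted p = 0.0102). ERF1A and ERF6, both raised several-fold in roots, were not called in NAE 18:3 cotyledons, with 0.74 (SE 0.19, adjusted p = 0.0169) for ERF1A and 0.55 (SE 0.14, adjusted p = 0.0165) for ERF6. Each of these had its NAE 18:3 libraries above its DMSO libraries: ERF6, for example, had 47.1, 48.6 and 53.3 CPM in NAE 18:3 cotyledons, against 30.4, 40.8 and 29.8 CPM in DMSO cotyledons. With NAE 18:2, ERF1A had 30.0, 27.8 and 37.8 CPM, against 43.5, 42.5 and 36.5 CPM in DMSO cotyledons (-0.34, adjusted p = 0.299). ERF104, ERF4 and ERF11 were between -0.51 and 0.45 on the log2 scale under either NAE, and none was called. Cotyledon and root markers gave no call in these comparisons, with 0 of 8 and 0 of 3 tested at an unadjusted p under 0.05 and 0 by DESeq2.

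**Figure D3:**
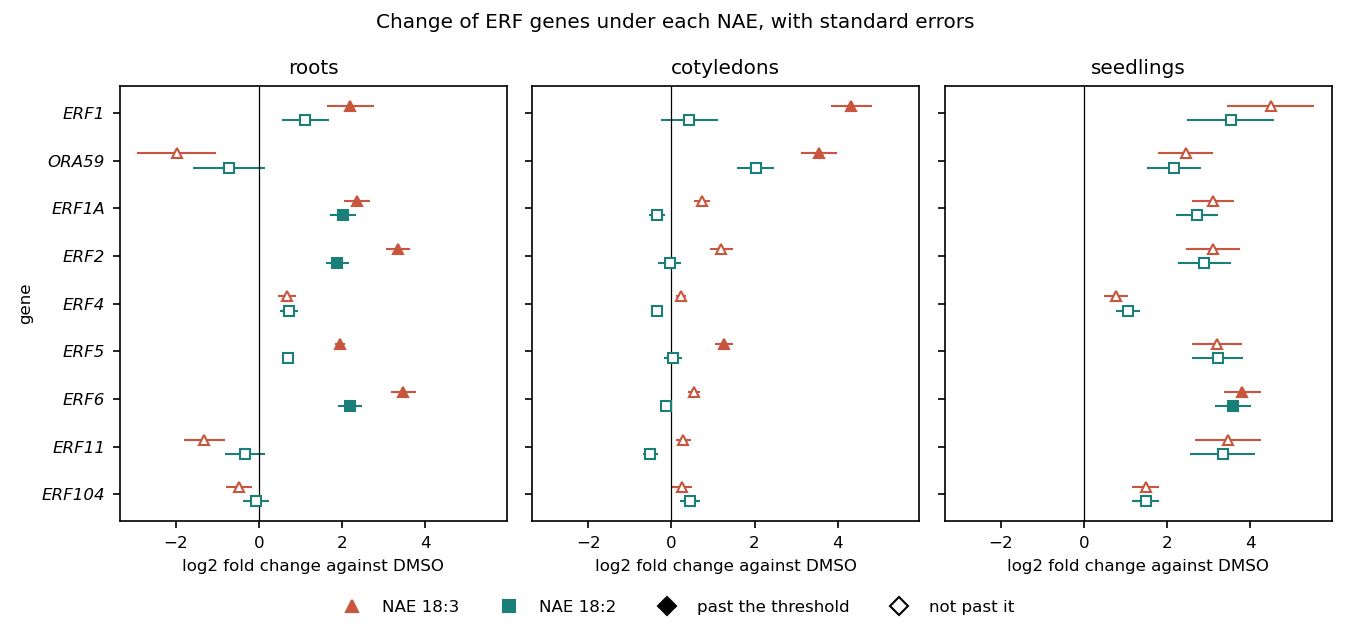
Log2 fold change against DMSO for each gene in roots, cotyledons and seedlings, with standard errors as bars. Triangles are NAE 18:3, squares NAE 18:2, and filled symbols mark genes past the threshold. ORA59 lies at 3.55 in NAE 18:3 cotyledons and at -1.97 in NAE 18:3 roots, and ERF6 at 0.55 in NAE 18:3 cotyledons and 3.48 in NAE 18:3 roots.

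Whether an NAE acted differently on a gene in the organs was tested as the root effect minus the cotyledon effect in a fit of all 27 libraries. With NAE 18:3, ERF6 and ERF2 rose more in roots and ORA59 more in cotyledons, 2 members higher and 1 lower of 9, beside 5.56% and 9.86% of 21643 genes. With NAE 18:2, ERF6 and ERF1A rose more in roots, 2 higher and 0 lower of 9, beside 1.92% and 1.01%. For ERF6 the difference was 3.09 with NAE 18:3 (SE 0.45, adjusted p = 2.50e-05) and 2.39 with NAE 18:2 (SE 0.45, adjusted p = 0.00221), called in each of 12 fits with 1 library left out. For ORA59 it was -5.36 with NAE 18:3 (SE 1.12, adjusted p = 0.000784), also called in each of 12, and -2.72 with NAE 18:2 (SE 1.04, adjusted p = 0.0830).

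ERF1A and ERF2 leaned the same way as ERF6 with less certainty. The difference was 2.43 for ERF1A with NAE 18:2 (SE 0.53, adjusted p = 0.00618) and 1.78 with NAE 18:3 (SE 0.53, adjusted p = 0.0110). ERF1A with NAE 18:2 kept its call in 2 of 12 fits, those without DMSO roots replicate 1 or NAE 18:2 roots replicate 2, and the adjusted p elsewhere reached 0.0221, without NAE 18:2 roots replicate 1. With NAE 18:3 it passed without NAE 18:3 cotyledons replicate 3 (adjusted p = 0.00948) or NAE 18:3 roots replicate 3 (0.00850). For ERF2 the difference was 2.31 with NAE 18:3 (SE 0.65, adjusted p = 0.00766) and 2.00 with NAE 18:2 (SE 0.65, adjusted p = 0.0443). Its NAE 18:3 call held in 3 of 12 fits, those without DMSO cotyledons, NAE 18:3 cotyledons or NAE 18:3 roots replicate 3, with an adjusted p of up to 0.0226 in the others. ERF5 rose in both organs with NAE 18:3, and its difference of 0.84 was not called, nor were those of ERF1, ERF4, ERF11 and ERF104 under either NAE.

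**Figure D4:**
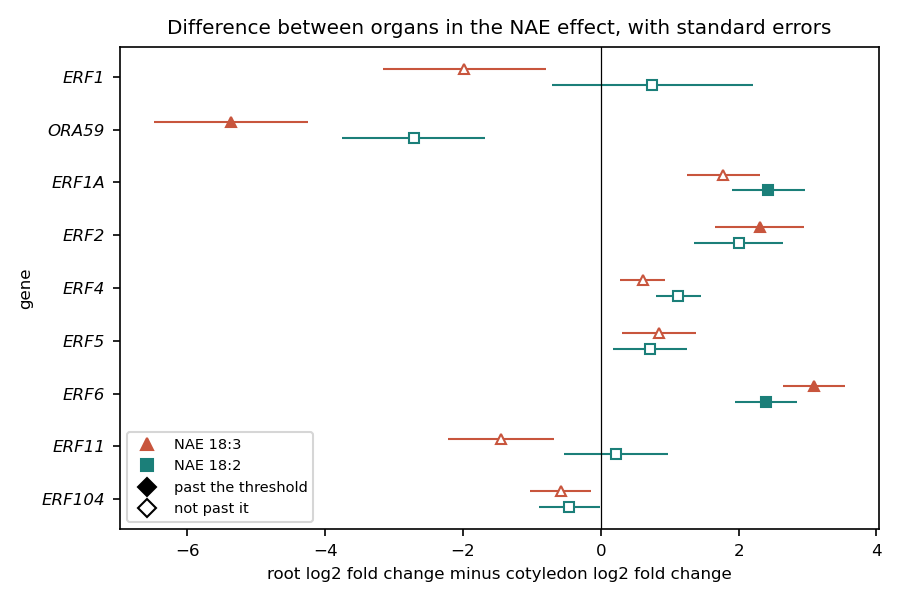
Root log2 fold change minus cotyledon log2 fold change for each gene, with standard errors as bars. Triangles are NAE 18:3, squares NAE 18:2, and filled symbols mark differences past the threshold. ORA59 lies at -5.36 and ERF6 at 3.09 with NAE 18:3.

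The NAEs were also set against each other within each organ, as the treatments were applied. Their doses differ, so these values compare 70 or 80 µM NAE 18:3 with 40 µM NAE 18:2 and say nothing of potency. In roots, 3 of 9 members were higher with NAE 18:3 and 0 lower, beside 1.91% and 15.3% of genes. They were ERF2 (log2 difference 1.46, 95% interval 0.85 to 2.07, adjusted p = 0.00248), ERF5 (1.26, 0.97 to 1.54, adjusted p = 0.000166) and ERF6 (1.28, 0.67 to 1.90, adjusted p = 0.00449). The last lost its call without NAE 18:2 roots replicate 3 (adjusted p = 0.0162) or NAE 18:3 roots replicate 1 or 3 (0.0132 and 0.0106). ERF1A, raised by both, differed by 0.34 with an interval of -0.32 to 1.01, which leaves room for a difference of up to 1.01.

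In cotyledons, 3 of 9 members were higher with NAE 18:3 than with NAE 18:2 and 0 lower, beside 3.91% and 0.417% of genes. ERF1 differed by 3.90 (95% interval 2.86 to 4.94, adjusted p = 0.000691) and was called in 6 of 6 fits with a library left out. ERF1A differed by 1.08 (0.65 to 1.52, adjusted p = 0.00484) and ERF5 by 1.23 (0.74 to 1.72, adjusted p = 0.00487). These values were near the thresholds: ERF1A held in the 2 fits without NAE 18:2 cotyledons replicate 3 or NAE 18:3 cotyledons replicate 1, and ERF5 only without NAE 18:2 cotyledons replicate 3, with adjusted p up to 0.0222 and 0.0234 in the rest. ERF11 was called without NAE 18:2 cotyledons replicate 3 (1.00, adjusted p = 0.00536). ORA59 differed by 1.53 with an interval of 0.66 to 2.39 (adjusted p = 0.0221). In seedlings edgeR called 0 of 9 members, 0 of them at an unadjusted p under 0.05 and 0 by DESeq2, with 0 of 20911 genes called in all, and the intervals were wide, -1.0 to 2.91 for ERF1 and -0.66 to 1.11 for ERF6.

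In whole seedlings, every measured member had a higher mean under each NAE than under DMSO, but the spread between NAE libraries was large and edgeR called only ERF6. The count depends on the fit: DESeq2 called 8 of 9 members with NAE 18:3 and 9 of 9 with NAE 18:2, and edgeR on all 27 libraries called 8 of 9 with each. The shares of all genes called in those fits are not given here, so their member counts have no background beside them. In the fit of the 9 seedling libraries, ERF6 was 1 of 9 called higher and 0 lower, beside 1.28% and 0.631% of 20911 genes with NAE 18:3 and 0.674% and 0.206% with NAE 18:2. ERF6 had 29.0, 71.3 and 56.8 CPM in NAE 18:3 seedlings and 55.8, 23.8 and 54.2 CPM in NAE 18:2 seedlings, against 3.55, 4.22 and 3.26 CPM in DMSO seedlings. The NAE libraries lay apart from the DMSO libraries, with a log2 fold change of 3.81 for NAE 18:3 (SE 0.44, adjusted p = 0.00455) and 3.58 for NAE 18:2 (SE 0.44, adjusted p = 0.00659). ERF1A had 54.4, 183 and 115 CPM in NAE 18:3 seedlings and 115, 43.4 and 111 CPM in NAE 18:2 seedlings, against 13.3, 15.1 and 11.8 CPM in DMSO seedlings (3.11, adjusted p = 0.0107, and 2.73, adjusted p = 0.0210). The repressor ERF11 had 4.06, 20.3 and 17.0 CPM in NAE 18:3 seedlings and 16.9, 3.22 and 17.7 CPM in NAE 18:2 seedlings, against 1.24, 1.43 and 1.00 CPM in DMSO seedlings (3.47, adjusted p = 0.0229, and 3.34, adjusted p = 0.0415). The other 6 measured members had log2 fold changes of 0.77 to 4.49 with NAE 18:3 (adjusted p 0.0153 to 0.0786) and of 1.06 to 3.53 with NAE 18:2 (adjusted p 0.0221 to 0.0759). The median over the 9 was 3.11 with NAE 18:3 and 2.90 with NAE 18:2, beside -0.03 for all genes in both. In ERF6, ERF1A and ERF11, NAE 18:3 replicate 1 and NAE 18:2 replicate 2 were the lowest NAE libraries and still lay above the DMSO libraries. With NAE 18:3, 9 of 9 members had no overlap with DMSO, and with NAE 18:2 8 of 9, ORA59 being the exception. The share of all genes without overlap is not given here, so these counts are not read as a trait of the members.

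The high NAE libraries were the 4 with few root transcripts, whose marker levels stood near those of dissected cotyledons, and the part of tissue composition in the ERF values was not tested. With those 4 left out, 1 library remained for each NAE, and its spread is assumed from the other groups of the fit. The log2 fold change of ERF6 was then 2.98 with NAE 18:3 (adjusted p = 1.72e-05) and 2.69 with NAE 18:2 (adjusted p = 3.77e-05). ERF1A had 2.02 (adjusted p = 9.19e-05) and 1.69 (adjusted p = 0.000284), and ERF5 1.84 (adjusted p = 0.000523) and 1.89 (adjusted p = 0.000524). ERF11 had 1.72 with NAE 18:3 (adjusted p = 0.00902) and 1.39 with NAE 18:2 (adjusted p = 0.0353), and ERF1, ORA59, ERF2, ERF4 and ERF104 were not called in these fits. With single libraries left out, the number of members called ranged between 0 and 7 under either NAE. It was 7 without NAE 18:3 replicate 1 or without NAE 18:2 replicate 2, and 0 without DMSO replicate 1, 2 or 3. ERF6 lost its call without DMSO seedlings replicate 1, 2 or 3 (adjusted p up to 0.0308 with NAE 18:3 and 0.0490 with NAE 18:2), without NAE 18:3 replicate 3 (0.0156) and without NAE 18:2 replicate 1 or 3 (0.0293 and 0.0301).

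**Figure D5:**
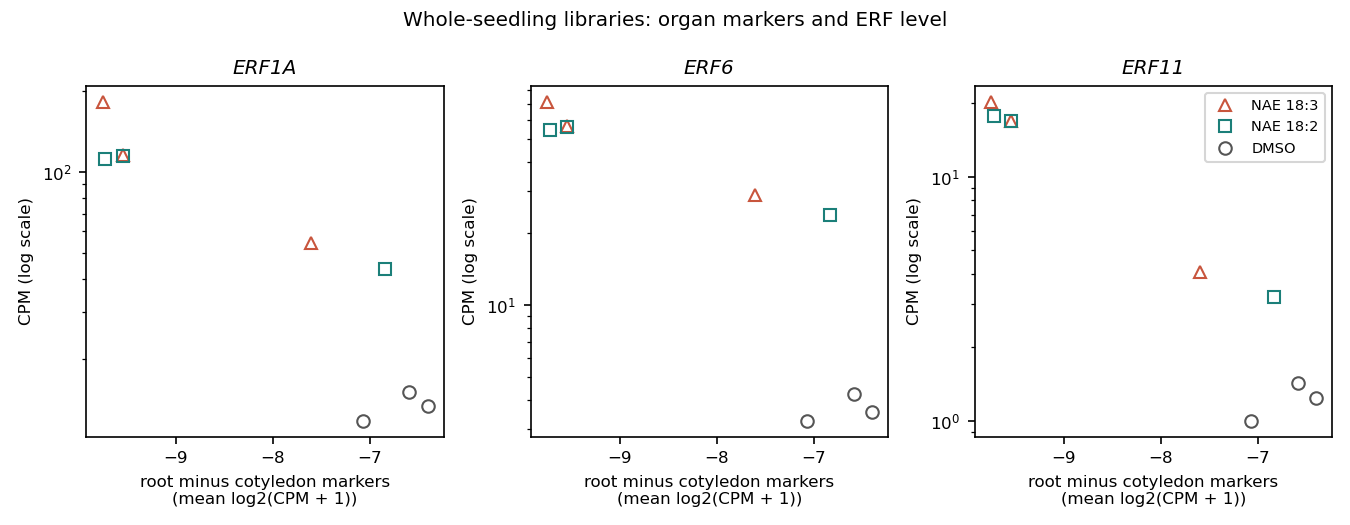
CPM of ERF1A, ERF6 and ERF11 (log axis) in the 9 whole-seedling libraries against the mean root-marker minus cotyledon-marker level, in log2(CPM + 1). Triangles are NAE 18:3, squares NAE 18:2 and circles DMSO. The 4 libraries between -9.75 and -9.54 are the highest for each gene, and the NAE libraries at -7.60 and -6.84 lie between them and the DMSO libraries in CPM.

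Dissected organs and whole seedlings also differed without any NAE. In DMSO cotyledons, 7 of 9 members were higher than in DMSO seedlings and 0 lower (2.56% and 10.8% of 21643 genes): ERF11 by 4.23 (SE 0.63, adjusted p = 3.99e-05), ERF6 by 3.19 (SE 0.35, adjusted p = 1.41e-06), and ERF5, ERF104, ERF2, ERF1A and ERF4 by 2.28 to 1.25. In DMSO roots, 5 of 9 were higher and 1 lower (8.92% and 19.2%): ERF6 by 3.24 (SE 0.35, adjusted p = 8.53e-08), ERF5 by 2.45, ERF11 by 2.36, ERF104 by 2.06 and ERF1A by 1.82, with ORA59 at -2.51 (SE 0.69, adjusted p = 0.00432). ERF6 had 30.4, 40.8 and 29.8 CPM in DMSO cotyledons and 41.1, 30.8 and 32.7 CPM in DMSO roots, against 3.55, 4.22 and 3.26 CPM in DMSO seedlings. Both parts of the plant thus stood above the whole for ERF6, ERF5, ERF11, ERF104 and ERF1A. Of 7 touch and wounding response genes, 4 were called higher in DMSO cotyledons than in DMSO seedlings (TCH2, TCH3, TCH4 and JAZ7) and 0 in DMSO roots, where TCH4 and CML38 were lower, and the part of cutting in the ERF levels was not tested. ERF2 lost its cotyledon call without DMSO cotyledons replicate 1 or 2 or DMSO seedlings replicate 1 or 3 (adjusted p up to 0.0244), and ERF1A without DMSO seedlings replicate 1 or 3 (up to 0.0152). In roots, ORA59 lost its call without DMSO roots replicate 1 or 3 or DMSO seedlings replicate 2 (up to 0.0405), and ERF11 without DMSO roots replicate 1 or DMSO seedlings replicate 1 or 3 (up to 0.0165).

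Other genes of the pathway were followed in lists chosen by their known roles. Their counts are to be read beside the shares of all genes called in the same fits. In roots, 5.94% were higher and 16.8% lower with NAE 18:3, and 5.68% and 3.03% with NAE 18:2. In cotyledons, the shares were 6.33% and 2.49% with NAE 18:3, and 0.617% and 0.108% with NAE 18:2. Upstream, of 12 ethylene receptor and signaling genes, 1 was higher and 1 lower in NAE 18:3 roots and 2 were higher in NAE 18:2 roots. The receptor gene ERS2 rose with both NAEs, by 1.08 (SE 0.17, adjusted p = 0.000725) with NAE 18:3 and 1.40 (SE 0.17, adjusted p = 0.000690) with NAE 18:2. The receptor gene ETR2 was lower with NAE 18:3 (-1.26, adjusted p = 0.00461) and higher with NAE 18:2 (1.33, adjusted p = 0.00728), the second in none of 6 fits with a library left out (adjusted p up to 0.0293) and the first in 3 of 6, lost without DMSO roots replicate 1 or 2 or NAE 18:3 roots replicate 1 (up to 0.0176). In cotyledons 0 of these 12 were called under either NAE by edgeR or DESeq2, with 5 at an unadjusted p under 0.05 each time. The list's median in roots was -0.05 with NAE 18:3 and 0.62 with NAE 18:2, beside 0.00 and -0.02 for all genes.

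Of 6 MAP kinase genes upstream of ERF proteins, MPK3 and its activating kinase MKK9 rose with NAE 18:3, and the median of the list was 0.39 in roots and 0.20 in cotyledons, beside 0.00 and -0.02 for all genes. MPK3 changed by 2.79 (SE 0.19, adjusted p = 1.54e-05) and MKK9 by 3.23 (SE 0.29, adjusted p = 4.78e-05) in NAE 18:3 roots. In NAE 18:3 cotyledons MKK9 changed by 1.29 (SE 0.21, adjusted p = 0.00187) and MPK3 by 1.02 (SE 0.16, adjusted p = 0.00128), the last under the fold threshold without DMSO cotyledons replicate 2 or 3 or NAE 18:3 cotyledons replicate 1 (0.94 at the least). With NAE 18:2, edgeR called 0 of 6 in roots, with 6 at an unadjusted p under 0.05 and 1 by DESeq2, and 0 of 6 in cotyledons, with 2 and 0. MPK3 and MKK9 were higher in NAE 18:3 roots, the libraries in which ERF6 was highest. In the same comparison MKK5 (-0.69, adjusted p = 0.00129) and MKK4 (-0.19, adjusted p = 0.147) had negative values. MPK6 (0.56) and MPK4 (0.21) had positive values, and none of these was called. The part of these kinases in the ERF6 values was not tested.

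Among 9 other genes of ERF group IX, 5 or 6 could be tested in each organ, with a median of 0.05 in NAE 18:3 roots (2 higher, 2 lower), 0.80 in NAE 18:2 roots (1 higher, 0 lower), 0.68 in NAE 18:3 cotyledons (1 higher, 0 lower) and 0.48 in NAE 18:2 cotyledons (1 higher, 0 lower). Of all genes tested, 5.94% were called higher and 16.8% lower in NAE 18:3 roots, and 6.33% and 2.49% in NAE 18:3 cotyledons. The shares were 5.68% and 3.03% in NAE 18:2 roots, and 0.617% and 0.108% in NAE 18:2 cotyledons. In NAE 18:3 roots ERF13 (2.24, SE 0.34, adjusted p = 0.000700) and TDR1, the gene beside ERF1 (3.44, SE 0.37, adjusted p = 0.000104), were higher. ERF106 (-2.01, SE 0.20, adjusted p = 6.75e-05) and ERF14 (-1.96, SE 0.49, adjusted p = 0.00719) were lower there. ERF14 was called in 2 of 6 fits with a library left out, those without DMSO roots replicate 2 or NAE 18:3 roots replicate 2 (adjusted p otherwise up to 0.0275). ERF15 rose with NAE 18:3 in cotyledons (1.87, SE 0.15, adjusted p = 3.53e-05) and with NAE 18:2 in cotyledons (1.17, SE 0.15, adjusted p = 0.00538) and roots (1.07, SE 0.15, adjusted p = 0.00114). With NAE 18:2 in cotyledons that call was lost without DMSO cotyledons replicate 1 or 2 or NAE 18:2 cotyledons replicate 1 or 3 (adjusted p up to 0.0329), and in roots without NAE 18:2 roots replicate 1 (0.97 on the log2 scale). DEWAX, the gene beside ERF104, was not called by edgeR under either NAE in any organ. Of 6 other repressor genes of group VIII, 2 were higher and 1 lower in NAE 18:3 roots (median 0.42), 0 and 1 in NAE 18:2 roots (0.10) and 1 and 0 in NAE 18:3 cotyledons (0.17). ERF8 rose with NAE 18:3 in roots (1.16, SE 0.20, adjusted p = 0.00123) and cotyledons (1.34, SE 0.16, adjusted p = 0.000268), and ERF10 in roots (1.72, SE 0.27, adjusted p = 0.000732). ERF12, the gene beside ERF11, was lower in NAE 18:3 roots (-1.67, SE 0.41, adjusted p = 0.00703), a call kept only without NAE 18:3 roots replicate 2 (adjusted p otherwise up to 0.0271), and ERF9 was lower in NAE 18:2 roots (-1.04, adjusted p = 0.00354), kept without DMSO roots replicate 1 or NAE 18:2 roots replicate 2 (otherwise up to 0.0191). Of 3 genes for co-repressors that EAR motifs recruit, 0 were called by edgeR or DESeq2 in roots, cotyledons or seedlings, with 1 or 2 at an unadjusted p under 0.05 in each comparison with DMSO.

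Of 7 defense protein genes known as ERF targets, 3 could be tested in cotyledons, with 1 higher and 0 lower under NAE 18:3, and 2 in roots, with 0 higher and 2 lower. Of all genes tested with NAE 18:3, 6.33% were called higher and 2.49% lower in cotyledons, and 5.94% and 16.8% in roots. The best known target of ERF1 and ORA59 could hardly be measured. PDF1.2A had at most 5 counts in any library and 0 in each root library, and PDF1.2B and PDF1.2C at most 6 and 3, so no change of these defensins was detectable at this depth although ERF1 and ORA59 rose in NAE 18:3 cotyledons. PR4, a chitin-binding defense protein gene, was at 8.32 ± 2.92 CPM in NAE 18:3 cotyledons, against 2.51 ± 0.422 CPM in DMSO cotyledons (1.71, SE 0.29, adjusted p = 0.00204, lost without DMSO cotyledons replicate 2 at 0.0123). It went the other way in roots, at 10.5 ± 7.31 CPM with NAE 18:3, against 38.5 ± 7.56 CPM with DMSO (-2.03, SE 0.42, adjusted p = 0.00333, lost without DMSO roots replicate 1 or NAE 18:3 roots replicate 3, up to 0.0148). PR3, a basic chitinase gene, was also lower in NAE 18:3 roots (-2.26, SE 0.38, adjusted p = 0.00107). These lower values stand beside the higher levels of ERF1 and ERF2 in the same libraries.

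The 4 known ERF6 targets had a median of 0.70 in NAE 18:3 roots (2 higher, 1 lower). It was 1.32 in NAE 18:2 roots (2 higher, 0 lower) and 1.28 in NAE 18:3 cotyledons (2 higher, 0 lower). The all-gene medians of these comparisons are those given above. Of all genes tested, 5.94% were called higher and 16.8% lower in NAE 18:3 roots. The shares were 5.68% and 3.03% in NAE 18:2 roots, and 6.33% and 2.49% in NAE 18:3 cotyledons. WRKY33, a regulator of camalexin synthesis, rose in NAE 18:3 roots (2.68, SE 0.21, adjusted p = 2.84e-05), NAE 18:2 roots (2.28, SE 0.21, adjusted p = 0.000217) and NAE 18:3 cotyledons (1.83, SE 0.19, adjusted p = 0.000125). MYB51, a regulator of indole glucosinolates, rose in NAE 18:3 cotyledons (2.16, SE 0.21, adjusted p = 9.74e-05) and NAE 18:2 roots (1.55, SE 0.28, adjusted p = 0.00451), the call in NAE 18:2 roots holding in 1 of 6 fits with a library left out, that without NAE 18:2 roots replicate 2 (otherwise adjusted p up to 0.0213). MYB51 was also called in NAE 18:3 seedlings (2.69, adjusted p = 0.00562) and NAE 18:2 seedlings (2.42, adjusted p = 0.00977), kept only without NAE 18:3 seedlings replicate 1 and NAE 18:2 seedlings replicate 2 (otherwise up to 0.0384 and 0.0622). ZAT10, a zinc finger repressor, was higher in NAE 18:3 roots (1.70, SE 0.28, adjusted p = 0.000967), and GA2OX6, a gibberellin-inactivating enzyme that ERF6 raises under osmotic stress, was lower there (-1.86, SE 0.24, adjusted p = 0.000298). So ERF6 and this target moved in opposite directions in NAE 18:3 roots. In the other comparisons with DMSO, edgeR did not call GA2OX6. Its log2 fold change was positive in NAE 18:3 cotyledons (0.72), NAE 18:3 seedlings (2.35) and NAE 18:2 seedlings (2.31). It was negative in NAE 18:2 roots (-0.32) and NAE 18:2 cotyledons (-0.86). Of 4 tested jasmonate branch regulators, JAM1, a bHLH repressor, was higher in NAE 18:3 roots (1.36, SE 0.15, adjusted p = 0.000101). MYC2 had a count of 0 in each library, like ERF105, and could not be tested. As for ERF105, this 0 is not read as a level of MYC2.

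In roots, 3 of the 7 touch and wounding genes were called higher under each NAE. Of all genes tested there, 5.94% were called higher with NAE 18:3 and 5.68% with NAE 18:2. TCH3, TCH4 and CML38, genes of calcium sensors and of a cell wall enzyme, were higher with NAE 18:3 (2.65, 3.61 and 3.84) and with NAE 18:2 (2.38, 2.14 and 3.13), 3 of 7 each time with adjusted p of at most 0.00326, and the median of the 7 was 0.72 with NAE 18:3 and 0.06 with NAE 18:2. In NAE 18:3 cotyledons, TCH3 (1.78) and CML38 (1.25) were higher and 3 genes lower, among them TCH2 (-1.28) and JAZ7 (-3.27). JAZ7 lost its call in each fit with a library left out (adjusted p up to 0.0242). TCH4 with NAE 18:2 in roots lost its call without DMSO roots replicate 2 or NAE 18:2 roots replicate 1 (up to 0.0131). Whether handling contributed to the ERF values was not tested.

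Over the 27 libraries the measured members did not share 1 profile. Against the mean z score of the 9, ERF5 (Pearson r = 0.936), ERF2 (0.895) and ERF4 (0.895) lay closest, ERF11 (0.610) and ORA59 (0.227) farthest, each being part of that mean. Outside the set, the genes nearest to this mean profile among 20229 were RDUF2 and RTFL12 (r = 0.964 each), AT1G07135 (0.960), AT1G76600 (0.954) and NUDT4 (0.953). These r are descriptions over 27 libraries that share organs, treatments and depth.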

How the data were processed

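RNA-seq libraries were made by the authors with a stranded poly(A) kit from roots, cotyledons and whole seedlings, in 9 groups of 3. Reads were checked with FastQC, trimmed with Trimmomatic 0.36 and aligned with STAR 2.6 to TAIR10, and the authors compared treatments with DESeq2. The program that counted reads, and whether it used strand, are not given in the sources used here. The table used here holds the authors' raw counts per gene, deposited with no normalization. A second deposited table holds a signal made by dividing each count by a size factor per library (0.795 to 1.40). It was not tested.

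Genes were filtered with filterByExpr (minimum count 10) and tested with edgeR 4.0.16 in R 4.3.3 (TMM scaling, robust quasi-likelihood fit). The 9 libraries of an organ entered each NAE comparison, and all 27 entered the organ comparisons and the differences of NAE effects between organs. Genes were called at an adjusted p under 0.01 with a log2 fold change beyond 1. CPM used the TMM factors of the 27 libraries, and levels between genes were compared per kb of exon. Promoters of 300 bases were read with Python 3.11 from the TAIR10.1 sequence of RefSeq, and proteins were aligned with Biopython 1.88. Intervals of count ratios are exact (Clopper-Pearson) and cover counting error only. The tests were run on simulated data with known changes before use.

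The members, gene lists and tests were chosen with earlier results of these data known. List genes are named where they passed the threshold against DMSO, at most the 4 with the largest change per list and comparison, or where they neighbour a member. PDF1.2B and PDF1.2C are named for their low counts and MYC2 for its count of 0, chosen after these were seen. The 5 genes most like the members were ranked by Pearson r of log2(CPM + 0.5) over 27 libraries. Alternatives were DESeq2 1.42.0, upper quartile scaling, no filter, other sets of libraries, a fit without robust estimation, the root share as a covariate, libraries 1 and 3 of NAE 18:2 seedlings summed, a replicate block, and each library left out in turn. Leaving out 4 seedling libraries was chosen after seeing the data. Same-numbered libraries deviated together, with a correlation over 0.1 for each number, in 2 pairs of groups: NAE 18:2 and DMSO cotyledons (0.422, 0.145 and 0.277) and NAE 18:3 and NAE 18:2 cotyledons (0.140, 0.172 and 0.168).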

Additional observations from a re-analysis of the deposited data

Results flagged for a closer look

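A difference between roots and cotyledons in the effect of an NAE was called for 4 members, by a test of the difference itself on 27 libraries with edgeR. With NAE 18:3, the root effect minus the cotyledon effect was 3.09 for ERF6 (adjusted p = 2.50e-05), 2.31 for ERF2 (adjusted p = 0.00766) and -5.36 for ORA59 (adjusted p = 0.000784), on the log2 scale. With NAE 18:2, it was 2.39 for ERF6 (adjusted p = 0.00221) and 2.43 for ERF1A (adjusted p = 0.00618). Of all genes tested, 5.56% were called higher and 9.86% lower with NAE 18:3, and 1.92% and 1.01% with NAE 18:2. The calls of ERF2 with NAE 18:3 and of ERF1A with NAE 18:2 were lost in most fits with a library left out. The DMSO root libraries of ORA59 hold 3 to 39 counts and those of NAE 18:3 roots 1 to 16, so its value rests on low counts on the root side.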

How the results depend on the processing

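Of 40 calls of members, 433 values under other settings kept the call and 82 lost it, 67 further calls were gained, and no called value changed sign. The 48 sign changes were of values that were called in neither setting, at most 0.35 in size. With each library left out in turn, the number of members called was 2 to 3 in NAE 18:3 cotyledons (3 with all libraries), 0 to 1 in NAE 18:2 cotyledons (0), 4 to 5 in NAE 18:3 roots (5), 2 to 3 in NAE 18:2 roots (3), and 0 to 7 in seedlings under either NAE (1 each). For NAE 18:3 against NAE 18:2 it was 1 to 4 in cotyledons (3), 2 to 3 in roots (3) and 0 in seedlings (0). For the root minus cotyledon effect it was 2 to 4 with NAE 18:3 (3) and 1 to 2 with NAE 18:2 (2). Between DMSO groups it was 1 to 2 for roots against cotyledons (3), 5 to 7 for cotyledons against seedlings (7) and 4 to 6 for roots against seedlings (6). DESeq2 called 1 member in NAE 18:2 cotyledons, 8 in NAE 18:3 seedlings, 9 in NAE 18:2 seedlings and 5 for NAE 18:3 against NAE 18:2 in cotyledons. With all 27 libraries in one fit the counts were 8 in seedlings under either NAE and 0 for NAE 18:3 against NAE 18:2 in cotyledons, and ERF5 in NAE 18:3 cotyledons lost its call (adjusted p = 0.0227). For these comparisons, the shares of all genes called by DESeq2 and in that fit are not given here. With only the 6 libraries of a comparison, calls were lost for ERF1 in NAE 18:3 roots (adjusted p = 0.0140) and, for NAE 18:3 against NAE 18:2, for ERF1A in cotyledons (0.0109) and ERF6 in roots (0.0100). Without the 4 seedling libraries they were 4 with NAE 18:3 and 3 with NAE 18:2, and 3 with each in a fit of all organs. In NAE 18:3 seedlings the count was 2 without robust estimation, 2 with the root share as a covariate and 2 with upper quartile scaling. In NAE 18:2 seedlings it was 2 with the root share and 0 with libraries 1 and 3 summed. The replicate block gave 0 in seedlings under either NAE, 1 for the NAE 18:2 difference between organs, 2 for that of NAE 18:3, where ERF2 lost its call (adjusted p = 0.0113), and 4 in NAE 18:3 roots, and in the cotyledon comparisons whose numbers pair the libraries it changed no member call. The cause of these changes was not tested. Upper quartile scaling moved the all-gene median of DMSO roots against DMSO cotyledons to 0.30 (0.01 with TMM). It also moved the split of all calls, with 2799 higher and 3747 lower for DMSO roots against DMSO seedlings (1930 and 4160 with TMM), 1009 and 827 in NAE 18:2 roots (1143 and 610), 308 and 352 for the NAE 18:2 difference between organs (415 and 218) and 769 and 2370 for that of NAE 18:3 (1203 and 2133). Of 45 calls of list genes, 503 of 595 values kept the call and 92 lost it. ERF1 and ORA59 rest on few counts in DMSO cotyledons and roots, which limits their precision.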
